A study of Mus musculus with 22 samples.

Results

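In wild-type mice, the DNA of the fetal liver was less methylated than that of the whole midgestation embryo at many places. At 1725 stretches of 1 kb, livers of animals without functional Rlf were more methylated than wild-type livers at both E14.5 and E18.5, while mutant and wild-type embryos at E10.5 differed little. At most of these stretches methylation was lower in the livers than in the embryos of the mutants, too. Each stretch is a tile, 1 kb of sequence counted from the start of its chromosome. Tiles were chosen by their measured methylation. A tile was eligible if it lay on chromosomes 1 to 19 and held at least 8 CpGs that were each read at least 6 times in all 12 libraries, and 574594 tiles were. It was kept if, at E14.5 and again at E18.5, the lower of both mutant livers exceeded the higher of both wild-type livers by 5 percentage points or more, and if the E10.5 means differed by no more than 5 points. The 1725 tiles (0.3% of those eligible) are called the liver-only tiles here, and the smaller of the E14.5 and E18.5 distances between the lower mutant and the higher wild type is called the margin of a tile.

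Rlf encodes a zinc finger protein, and the study asked what happens to DNA methylation when it is missing. Whole genome bisulphite sequencing (WGBS) was done on 2 wild-type and 2 Rlf MommeD28/MommeD28 samples at each of 3 stages, from the whole embryo at E10.5 and from the liver at E14.5 and at E18.5. RNA-seq covered 3 wild-type and 3 Rlf MommeD28/MommeD28 E14.5 livers. MommeD28 is a null allele of Rlf made with the mutagen ENU, carried on the inbred FVB/NJ background of the Line3 mice, and both genotypes carry the multicopy GFP transgene of that line, which is driven by a globin promoter and enhancer. Homozygotes, here called mutants, die around birth. The E10.5 animals were labelled male and the E18.5 animals female, and at E14.5 each genotype had a male (replicate 1) and a female (replicate 2) in WGBS and 2 males and 1 female in RNA-seq. Tissue, stage and sex therefore cannot be told apart between E10.5 and E18.5, and each bulk sample is a mix of cells whose proportions may differ.

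In mammals, methyl groups sit mainly on the cytosines of CpG dinucleotides. Most CpGs outside CpG islands are methylated, and regulatory elements such as enhancers lose methylation when a cell type starts to use them. The fetal liver is the main site of blood formation before birth, so that red cell precursors make up much of it at E14.5, and hepatoblasts take a larger share towards birth. Methylation is copied at replication by DNMT1 with UHRF1, set anew by DNMT3A and DNMT3B, and oxidised by the TET enzymes on the way to its removal.

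To show what such a site looks like, 5 windows of 200 bases are given from the 5 tiles with the largest margins, none of them in a UTR. Each window surrounds the CpG whose mutant livers stood farthest above the wild-type livers on average, among CpGs read at least 10 times in all 8 liver libraries. The sequence is that of the reference genome (mm9, NCBIM37), on the plus strand, with every CpG in capitals.
Tile chr19:37570001-37571000, window chr19:37570077-37570276: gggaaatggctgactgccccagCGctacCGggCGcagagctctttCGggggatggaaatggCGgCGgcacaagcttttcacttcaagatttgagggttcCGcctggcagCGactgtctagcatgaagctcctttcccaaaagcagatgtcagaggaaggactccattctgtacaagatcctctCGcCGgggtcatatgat
Tile chr10:56157001-56158000, window chr10:56157351-56157550: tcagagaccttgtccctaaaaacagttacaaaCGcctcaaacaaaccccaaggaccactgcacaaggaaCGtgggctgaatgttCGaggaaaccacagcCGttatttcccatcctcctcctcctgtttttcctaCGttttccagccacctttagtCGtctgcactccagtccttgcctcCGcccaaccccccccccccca
Tile chr2:49328001-49329000, window chr2:49328297-49328496: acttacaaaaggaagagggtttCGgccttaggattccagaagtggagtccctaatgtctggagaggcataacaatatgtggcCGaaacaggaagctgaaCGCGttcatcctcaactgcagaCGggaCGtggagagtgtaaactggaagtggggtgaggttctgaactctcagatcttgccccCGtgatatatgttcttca
Tile chr2:45100001-45101000, window chr2:45100118-45100317: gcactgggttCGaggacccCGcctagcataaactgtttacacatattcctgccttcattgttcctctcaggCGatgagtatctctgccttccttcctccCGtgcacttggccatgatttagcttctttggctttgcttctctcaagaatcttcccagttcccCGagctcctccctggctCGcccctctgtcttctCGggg
Tile chr6:136419001-136420000, window chr6:136419195-136419394: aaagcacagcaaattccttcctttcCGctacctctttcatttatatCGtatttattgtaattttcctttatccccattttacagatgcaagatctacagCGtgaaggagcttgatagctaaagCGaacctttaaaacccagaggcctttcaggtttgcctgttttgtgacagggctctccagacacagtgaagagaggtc

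At the CpG at the centre of the chromosome 19 window (position 37570176), the wild-type E14.5 livers were 27.5% and 31.7% methylated and the mutant livers 67.3% and 74.5%. At the centre of the chromosome 6 window (position 136419294), the wild-type livers read 6.78% and 3.77% at E14.5 and the mutant livers 38.1% and 47.9%. At E18.5 the same chromosome 6 CpG read 5.56% and 14.3% in wild type against 70.97% and 64.7% in mutants. These CpGs were picked as the most different of their tiles and were read 10 to 63 times per library, so they illustrate the tiles and estimate no average.

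The tile on chromosome 19 (chr19:37570001-37571000), intergenic and 54407 bp from the nearest annotated start of a protein-coding gene, that of the exocyst gene Exoc6, had the largest margin, 22.7 points over 13 CpGs. At E10.5 the wild-type embryos were 94.3% and 88.3% methylated and the mutant embryos 95.5% and 92.5%. At E14.5 the wild-type livers were at 38.1% and 35.8% and the mutant livers at 65.3% and 63.4%. At E18.5 they were at 35.9% and 36.8% in wild type and at 64.1% and 59.5% in mutants. Both genotypes were thus nearly fully methylated in the embryo and lower in the livers. The mutant livers lay between the embryo and the wild-type livers.

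The second tile (chr10:56157001-56158000) was intergenic, 50148 bp from a start of Gja1, which encodes the gap junction protein connexin 43. Its E14.5 values were 30.4% and 23.9% in wild type and 52.5% and 49.8% in mutants, and its E18.5 values 27.2% and 28.7% against 54.7% and 53.1%. In the embryos it read 77.0% and 86.9% in wild type and 86.7% in both mutants. All 15 of its CpGs were higher in both mutant than in both wild-type E14.5 livers.

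The tile in an intron of Epc2 (chr2:49328001-49329000), a gene related to Enhancer of polycomb, read 56.8% and 61.9% in wild-type and 81.5% and 80.1% in mutant E14.5 livers, then 58.4% and 61.5% against 85.1% and 84.3% at E18.5. The intergenic tile nearest to Zeb2 (chr2:45100001-45101000), which encodes a zinc finger homeobox repressor and starts 127586 bp away, read 48.7% and 50.1% against 72.3% and 70.4% at E14.5, and 58.8% and 59.1% against 83.4% and 76.5% at E18.5. In E10.5 embryos the Epc2 tile lay between 89.7% and 94.6% and the Zeb2 tile between 86.9% and 92.1% in all 4 libraries. At both tiles the groups were far apart in the livers and overlapped or nearly met in the embryo.

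The tile on chromosome 6 (chr6:136419001-136420000) went the other way between embryos and livers. It was 6.2% and 8.2% methylated in wild-type embryos and 6.7% and 12.3% in mutant embryos. In wild-type livers it reached 11.4% and 9.5% at E14.5 and 16.1% and 18.6% at E18.5, and in mutant livers 28.1% and 27.8%, then 48.4% and 36.4%. Here the livers of both genotypes were more methylated than the whole embryos, in wild type only slightly so at E14.5. It belonged to the one run of 3 adjacent liver-only tiles (chr6:136417001-136420000), intergenic, with 44 CpGs in all. The mean over the 3 tiles went from 15.6% to 23.6% and 30.6% in wild type over the 3 stages and from 18.2% to 37.1% and 47.7% in mutants.

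The other 7 of the 12 largest margins lay between 14.8 and 15.7 points. They were nearest to starts of Enc1, Rps2-ps5, Ntrk2 (the BDNF receptor), Btg1 (an antiproliferative factor), Oscar (an immunoglobulin-like receptor), Rpl34 (a ribosomal protein) and Fyb (an adaptor of T cells and platelets). The Fyb tile (chr15:6529001-6530000) overlapped an exon and a UTR of that gene, with its centre 370 bp from an annotated start. It read 42.0% and 50.7% in wild-type and 65.5% and 66.8% in mutant E14.5 livers. All 15 of its CpGs were higher in both mutants at E14.5. The Oscar tile (chr7:3547001-3548000) was only about 48% methylated in the embryos of both genotypes (47.1% to 48.3%), fell to 17.9% and 21.3% in wild-type E14.5 livers, and read 36.2% and 39.4% in the mutants.

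**Figure D1:**
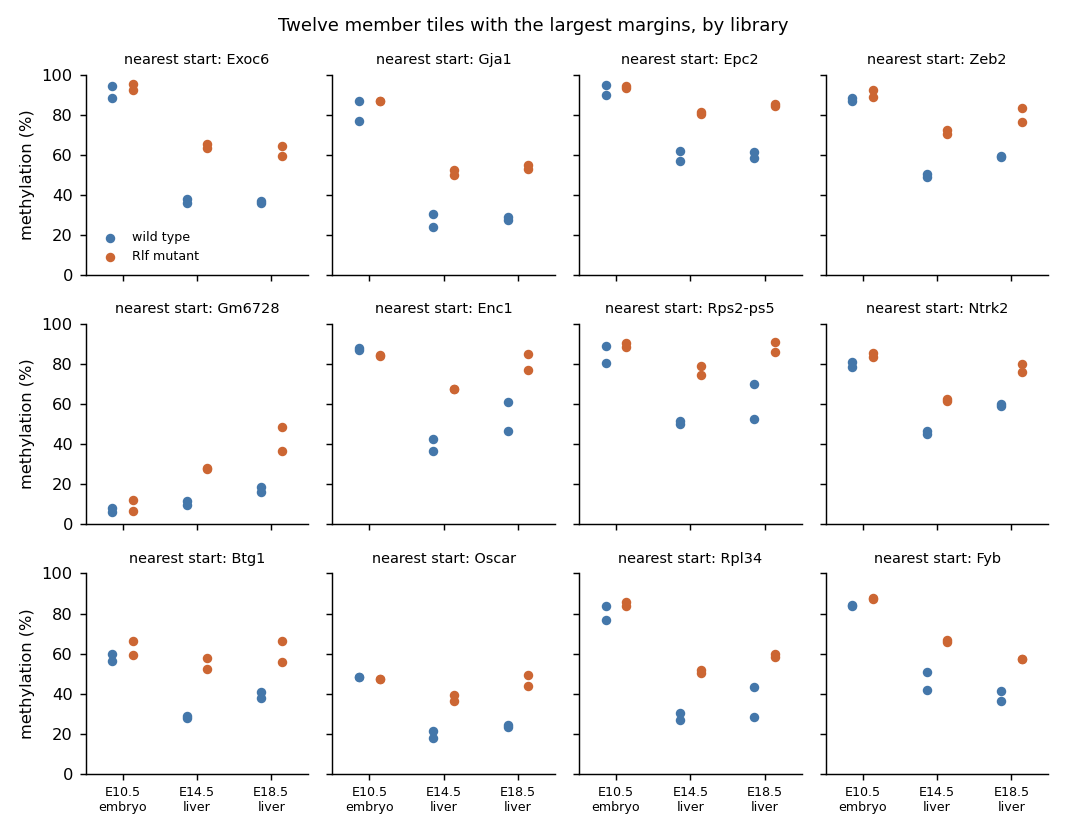
Methylation (%) of the 12 liver-only tiles with the largest margins in each of the 12 WGBS libraries, by stage, with wild type in blue and Rlf mutants in orange; each point is 1 library. In 11 tiles the livers lie below the embryos in wild type, and in the tile nearest to Gm6728 they rise from 6.2% and 8.2% to 16.1% and 18.6%; mutant livers lie above wild-type livers in every panel because the tiles were chosen for it.

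Over all 1725 liver-only tiles, mean methylation in E14.5 liver was 51.7% ± 1.07 in wild type and 61.7% ± 0.347 in mutants (SD, n = 2 libraries each). In E18.5 liver it was 56.4% ± 0.0198 and 67.9% ± 1.45. Per library, the wild-type E14.5 livers had means of 50.9% and 52.4% and the mutants 61.9% and 61.4%, and at E18.5 the means were 56.4% in both wild types and 68.9% and 66.9% in the mutants. In E10.5 embryos the means were 76.8% and 77.9% in wild type and 79.0% and 79.2% in mutants. The liver differences describe how the tiles were chosen: the margin alone was met by 3.74% of all eligible tiles at E14.5 and by 5.36% at E18.5. No test of them is given.

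**Figure D2:**
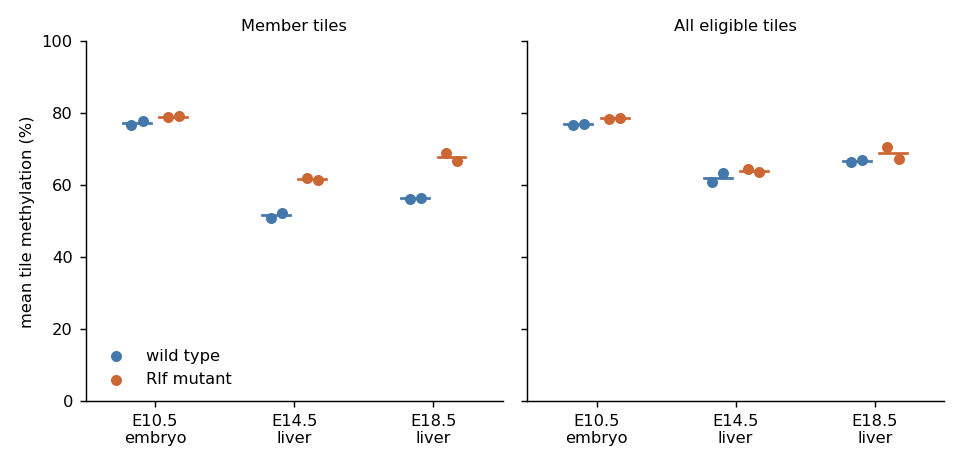
Mean methylation (%) of the liver-only tiles (left) and of all eligible tiles (right) in each WGBS library, by stage; points are libraries, bars their group means, wild type in blue and Rlf mutants in orange. Among the liver-only tiles the mutant livers lie about 10.03 and 11.5 points above wild type, against 1.96 and 2.26 points over all tiles, where the E18.5 mutant replicate 1 stands apart at 70.8%.

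Mutant libraries were on average also higher over all eligible tiles, and this bears on the size of the list. Over these tiles the mutants exceeded wild type by 1.58 points on average at E10.5, by 1.96 at E14.5 and by 2.26 at E18.5. At E14.5 the wild-type means were 60.9% and 63.3% and the mutant means 64.4% and 63.7%. Much of the E14.5 shift thus rested on wild-type replicate 1. At E18.5 mutant replicate 1 had a mean of 70.8%, and mutant replicate 2, at 67.2%, lay close to the wild types at 66.6% and 66.9%. Over all CpGs of chromosomes 1 to 19, mutant replicate 2 at E18.5 was at 61.39%, between the wild types at 61.35% and 61.68%, and mutant replicate 1 at 65.5%, so that the E18.5 shift rested on replicate 1. To see how the list changed without the shift of the medians, each library was centred on the median of all tiles of its stage, an alternative chosen after seeing the data. The count of liver-only tiles then fell from 1725 to 548, of which 434 were among the 1725, and the count of tiles that met the mirror image of the rule, with mutant livers lower, rose from 64 to 332. The excess of gains over losses was thus 1725 to 64 as measured and 548 to 332 after centring. Whether the shift over all tiles was biological or technical could not be told apart from these files, so neither split is preferred here, and centring does not measure how much of the list the shift accounts for. With a margin of 10 points the split was 87 to 1 as measured and 52 to 7 after centring. All 87 tiles stayed in the list with its 5-point margin after centring, but the liver part of this was fixed in advance. The library medians over all tiles ran from 64.9% to 69.1% at E14.5 and from 71.8% to 76.6% at E18.5. Centring could thus not bring a 10-point margin below 5 points, and only the embryo condition could have removed these tiles.

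Which tiles entered the list also depended on borders and libraries. When tile borders were moved by 500 bp, 1701 tiles met the rule and 519 of the 1725 were overlapped by one of them. When the mean over CpGs replaced the mean weighted by reads, 1743 tiles met it and 917 were shared. Leaving out 1 liver library relaxes the rule at its stage, and counts rose to 2499 and 6109 without wild-type E14.5 replicates 1 and 2, 5555 without mutant E18.5 replicate 2, 4192 and 3159 without mutant E14.5 replicates 2 and 1, and 3605 and 3326 without wild-type E18.5 replicates 2 and 1. Without the mutant E18.5 replicate 1 that stood apart, 2384 tiles met the rule with a median E18.5 gain of 9.41 points. At E10.5 the rule uses the difference of the means, and leaving out 1 embryo gave 1489 to 1994 tiles. Summed over the CpGs of a tile, read counts per library had medians of 446 to 497 at E14.5, 244 to 268 at E10.5 and 244 to 255 at E18.5. A read that covers several CpGs was counted at each of them. The 95% Wilson interval of a single tile in a single library had a median width of 8.48 points at E14.5, 8.86 at E10.5 and 11.3 at E18.5, so that near the 5-point limit the counting error of single libraries is as large as the margin itself. These intervals cover counting error only. They treat the counts at the CpGs of a tile as independent, so they can be too narrow.

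The gain of a tile, the mutant mean minus the wild-type mean, had a median of 9.47 points at E14.5 and 10.8 points at E18.5 among the liver-only tiles, with ranges of 5.23 to 27.8 and 5.06 to 30.4. Over all tiles the medians were 1.74 and 2.01. The E18.5 gain was the larger one in 1149 of the 1725 tiles, with mutant E18.5 replicate 1 included. Without that library, the tiles that met the rule had median gains of 9.12 points at E14.5 and 9.41 at E18.5. The E14.5 libraries were also read more deeply than the E18.5 libraries. With the E14.5 counts thinned, the tiles that met the rule had median gains of 9.98 points at E14.5 and 10.37 at E18.5. The part of depth in the difference between the stages was not tested. Across the liver-only tiles the E14.5 and E18.5 gains had a Pearson correlation of 0.413, and across all 574594 tiles of 0.251. This is a description: the tiles share their libraries, and both gains of a liver-only tile were cut at the same lower limit. A gain of at least 15 points at both stages was seen in 58 tiles, and a margin of at least 10 points in 87.

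Some tiles differed mainly at 1 of the stages. The tile 69009 bp from a start of the lipoprotein receptor gene Vldlr (chr19:27222001-27223000) gained 23.6 points at E14.5, from 43.4% and 51.8% to 71.8% and 70.7%, and 9.61 points at E18.5. The intronic Bend6 tile (chr1:33960001-33961000) gained 18.6 and then 7.75 points. In the reverse direction, the tile in an intron of Lhx2 (chr2:38216001-38217000), a LIM homeobox gene, gained 7.54 points at E14.5 and 25.2 at E18.5, where wild-type livers read 29.8% and 29.6% and mutant livers 55.1% and 54.8%. Intronic Rgs6 (chr12:84177001-84178000) and intergenic sequence near Nr2e1 (chr10:42259001-42260000) gained 8.67 and 10.2 points at E14.5 and 24.6 and 25.1 at E18.5. These tiles were taken from the ends of the ranking of the difference of both gains.

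**Figure D3:**
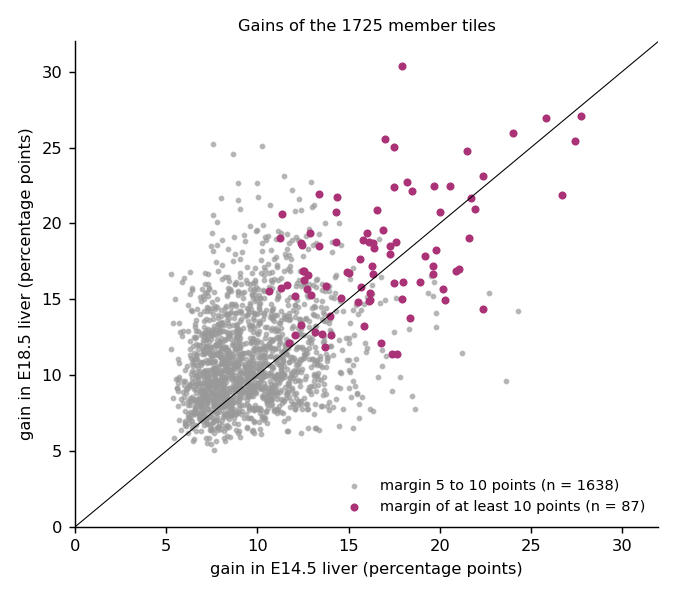
Gain in E14.5 liver (x axis) against gain in E18.5 liver (y axis), both in percentage points of methylation, for the 1725 liver-only tiles; the line marks equal gains and the 87 tiles with a margin of at least 10 points are in purple. Most points lie above the line (1149 tiles), and the empty lower left corner is set by the rule. The E18.5 libraries were read less deeply than the E14.5 libraries and include mutant replicate 1, which stood apart.

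At the edges of the rule, chr7:121225001-121226000 was just inside with an E18.5 margin of 5 points, and chr15:96542001-96543000 was just outside with an E14.5 margin of 4.998 points. For the embryo, chr4:54031001-54032000 was just inside with an E10.5 difference of 4.991 points and chr13:112610001-112611000 just outside with 5.007. Dropping the embryo condition left 4666 tiles with the liver margins, of which 2922 were more than 5 points higher in mutant embryos on average and 19 more than 5 points lower. Tiles with the liver margins whose embryos also gained were therefore more numerous than those kept.

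In the embryos a small difference in the same direction remained within the allowed band. The median E10.5 difference of the liver-only tiles was 2.11 points, against 1.14 over all tiles. Both mutant embryos lay above both wild-type embryos in 531 of the 1725 tiles (30.8%) and both below in 78 (4.52%), while among all tiles within the band 22.9% and 9.18% did so. The liver-only label thus means a smaller and less regular difference in the embryo, not none.

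In wild type, the liver-only tiles were far lower in the liver than in the whole embryo, a difference called a fall here. In 1579 of the 1725 tiles (91.5%) both wild-type E14.5 livers lay at least 5 points below both wild-type embryos, and 38 (2.20%) lay above by as much. Over all tiles 76.5% were lower and 2.49% higher. The median change was -25.8 points for the liver-only tiles and -15.8 for all tiles. At E18.5, 1523 (88.3%) were below the embryo in wild type, against 61.4% of all tiles. The rule favours tiles with low wild-type livers, so these shares are a description of the chosen tiles.

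In the mutants, too, most of these tiles were lower in the liver. The E14.5 livers were lower than the embryos in 1461 tiles (84.7%, against 77.4% of all tiles) with a median change of -17.8 points, and the E18.5 livers in 1112 (64.5%, against 54.6%) with -11.1 points. A smaller fall in the mutants is fixed by the rule, which asked for similar embryos and for higher mutant livers. As a description of its size, the mutant fall was a median of 70.9% of the wild-type fall (interquartile range 61.1% to 78.3%) in the 1579 tiles that fell in wild type, beside 94.8% (81.8% to 109%) in the 439653 of all eligible tiles that fell. From E14.5 to E18.5, methylation rose by at least 5 points without overlap in 493 tiles (28.6%) in wild type and in 665 (38.6%) in mutants, while 18.3% and 19.1% of all tiles did so. Both stages entered the rule, so these shares, too, describe the chosen tiles. Among the 38 tiles higher by this measure in wild-type E14.5 liver than in the embryo, the median went from 18.4% to 37.1% in wild type. In mutants it went from 19.9% to 48.4%. The chromosome 6 tile with a large margin rose by less than 5 points in wild type and was not among them.

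Liver-only tiles were mostly partly methylated in the liver. Of the 1725, 878 (50.9%) had a wild-type E14.5 level of 40% to 60%, where 20.2% of all tiles lay, and 276 (16%) a level of 20% to 40%, where 4.39% of all tiles lay. Only 5 were above 80%, against 11.3% of all tiles. In the embryo 1073 of them (62.2%) were above 80%, close to the 67.3% of all tiles. The liver levels entered the rule, so their shares describe the chosen tiles.

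Most CpGs of the liver-only tiles were higher in the mutant livers. The 1725 tiles held 21993 CpGs that were read in all libraries. At E14.5, 57.7% of them were higher in both mutants than in both wild types, and at E18.5 51.6%. Over the CpGs of all tiles these shares were 20.7% and 19.2%. At E10.5 it was 21.3% against 17.7%. On the mean of both libraries, 88.9% of the CpGs at E14.5, 86.2% at E18.5 and 59.5% at E10.5 were higher in mutants, against 54.7%, 52.9% and 50.01% of the CpGs of all tiles. These shares count CpGs that were higher and give no size of the gain at each. Since the tiles were chosen on sums over the same CpGs, the liver shares are not a separate measurement.

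Few liver-only tiles were adjacent to each other. Of the 1725 tiles, 1672 stood alone, 50 formed 25 adjacent pairs and 3 formed the run on chromosome 6. Around the tile centres the mutant excess at E14.5 was 9.62 and 9.71 points in the 500 bp to either side, 4.62 and 5.10 points in the next 500 bp, and 2.40 and 2.58 points 10 kb away. At E18.5 it was 11.1 and 10.9 points, then 5.02 and 5.52, then 2.70 and 3.02. In the embryo it stayed between 1.83 and 3.01 points over the whole 20 kb. Neighbouring eligible tiles that did not meet the rule had median gains of 3.61 and 3.93 points in the E14.5 and E18.5 livers at a distance of 1 tile, and 2.36 and 2.52 points at 20 tiles, against 1.74 and 2.01 points over all eligible tiles. The rule used the CpGs within the tile and these neighbours are tiles that it left out, so the height of the centre and part of the step at the tile border are set by the choice, and no length of the gains is estimated from them.

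**Figure D4:**
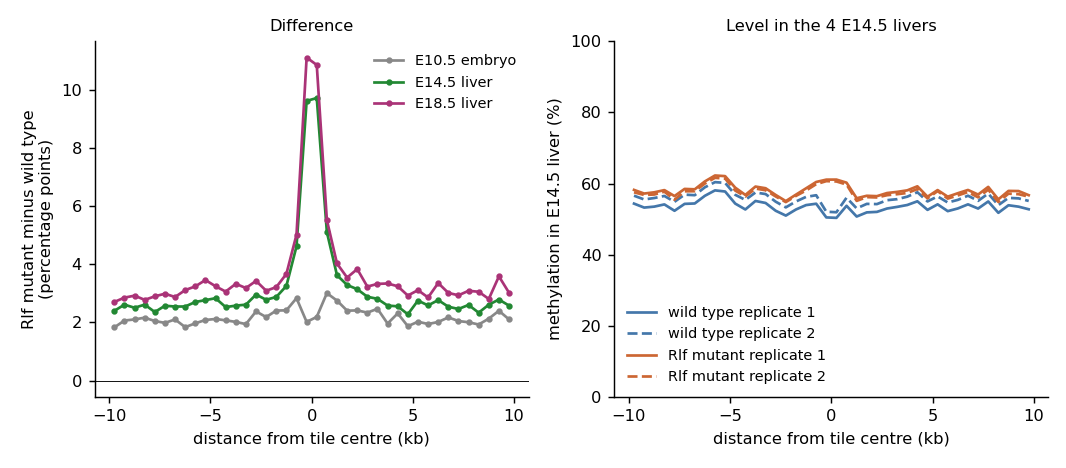
Left, mutant minus wild-type methylation (percentage points, mean of CpGs in bins of 500 bp) by distance from the centre of the liver-only tiles (kb) at each stage; right, methylation (%) in the 4 E14.5 livers over the same window. The excess peaks at 9.71 points (E14.5) and 11.1 points (E18.5) within the tile and falls to 2.40 and 2.70 points at the left edge, while the E10.5 curve stays between 1.83 and 3.01 points; the peak lies on the CpGs that chose the tiles, so its height and part of its edge are set by the rule; in the right panel the wild-type curves dip at the centre where the mutant curves rise.

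The liver-only tiles were more often intergenic, and less often at starts of genes, than eligible tiles as a whole. Position was not used by the rule, but liver methylation was. In wild-type E14.5 liver, 3.19% of the liver-only tiles and 6.37% of all eligible tiles were below 20%. Position shares can follow from such levels, and the part of the levels in them was not tested. By the tile centre, 928 of the 1725 (53.8%) were intergenic, 674 (39.1%) intronic, 64 (3.71%) exonic and 59 (3.42%) within 1 kb of a protein-coding start. Over all eligible tiles these shares were 41.1%, 45.7%, 6.73% and 6.51%. Of tiles that gained at all 3 stages, 48.7% were intergenic and 11.5% within 1 kb of a start. Of tiles that gained in embryos only, 40.8% and 4.87% were. A start lay within 2.5 kb of 8.41% of the liver-only tiles, of 11.6% of all eligible tiles, of 11.2% of the 9247 tiles that gained in embryos only and of 23.3% of the 1903 tiles that gained at all 3 stages. No CpG island annotation was used. Whole tiles were classed as island-like by their GC content and ratio of observed to expected CpGs, and tiles close to them as shores. Of the liver-only tiles 3 were island-like (0.174%), against 1.70% of all tiles. The share was 0.238% of those gaining in embryos only and 4.05% of those gaining at all stages. The low share was thus shared with the embryo-only tiles. Shores in this sense were 47 liver-only tiles (2.72%), near the 3.32% of all tiles, against 4.82% and 11.6% in these other sets. No test of these shares was made. The median gain at E14.5 was 9.64 points in intergenic, 9.17 in intronic, 9.32 in exonic and 9.11 in start tiles, all above the same lower limit of the rule, so these medians do not compare the classes. The 3 island-like tiles were low throughout, at 13.4% in wild-type and 22.9% in mutant E14.5 livers.

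In base composition the liver-only tiles were close to the eligible tiles, which were themselves limited to at least 8 measured CpGs. Their median GC content was 47.0% (46.9% over all tiles), their median number of measured CpGs 11 (11) and their median ratio of observed to expected CpGs 0.267 (0.264). The tiles gaining at all stages were richer, with 50.3% GC, 17 CpGs and a ratio of 0.343, and the 87 liver-only tiles with a margin of at least 10 points lay between, with 48.3%, 13 and 0.310. Per chromosome the share of eligible tiles that were liver-only ran from 0.227% on chromosome 9 to 0.460% on chromosome 13. Within 5 Mb of Rlf itself, on chromosome 4, 8 of 3830 eligible tiles were liver-only.

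Of 15 short sequence motifs searched on both strands, the GATA factor motif AGATAA differed most, in percentage points, between all liver-only and all eligible tiles. It was found in 836 of the 1725 liver-only tiles (48.5%), in 40.1% of all eligible tiles, in 40.2% of the 9247 tiles that gained in embryos only and in 35.8% of those that gained at all stages. GATA1 is the main GATA factor of red cell precursors and GATA4 that of hepatoblasts. The AP-1 motif TGANTCA was in 29.9% of the liver-only tiles and 25.99% of all tiles. The forkhead motif TGTTTAC was in 14.49% and 13.3%, the KLF motif CCACACCC in 10.1% and 8.74%, and the nuclear receptor motif AGGTCA in 51.7% and 49.2%. The core CCCTC of the CTCF motif was in 94.3% and 90.7%, the ETS motif CCGGAAG in 7.36% and 6.28%, the SP motif GGGCGG in 21.7% and 20.1%, and CCAAT, the NFY motif, in 73.97% and 73.0%. The HNF4 motif CAAAGTCCA was rare, with 33 liver-only tiles (1.91%, against 1.38%). Rarer still were the HNF1 motif (3 tiles, 0.174%, against 0.0593%) and the CEBP motif TTGCGCAA (4 tiles, 0.232%, against 0.155%). Lower shares than over all tiles were found for the E-box CAGCTG, with 41.0% of liver-only tiles, 42.6% of all tiles and 47.9% of those that gained in embryos only, for the E-box CACGTG (16.7% and 16.99%) and for the CRE motif TGACGTCA (0.986% and 1.14%). In the 87 tiles with the largest margins the order was another one. There SP (29.9%), ETS (14.9%), GATA (48.3%), CTCF (98.9%), CAGCTG (50.6%), nuclear receptor (52.9%), CACGTG (19.5%), KLF (10.3%) and CEBP (1.15%, in 1 tile) motifs lay above the share over all tiles. SP and ETS did so by more points and by a larger ratio than GATA, and CTCF by slightly more points. AP-1 (24.1%), forkhead (10.3%) and NFY (68.97%) motifs lay below it, and HNF4, HNF1 and CRE were in 0 tiles. No test of these shares was made. A match says that the letters are present and nothing of binding.

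Several genes had more than 1 liver-only tile nearest to them. Jarid2, a partner of Polycomb repressive complex 2, had 8, Rreb1 (a zinc finger transcription factor) had 6, and Sox4, Zfp608 and Hs6st1 had 5 each. Runx1, the transcription factor at the start of definitive blood formation, Klf3 and Klf4, Sox9 and Kdr (a VEGF receptor) had 3 each. Genes with long flanks have more tiles nearest to them, so these counts do not compare genes, and the genes named here were picked after their counts were seen. Starts of developmental transcription factor families were nearest to 69 of the 1725 tiles (4%), against 2.0996% of all tiles, 5.68% of those gaining at all stages and 2.94% of those gaining in embryos only. Signalling families were nearest to 19 (1.10%, against 1.23%).

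Some genes of the main liver cell types had a liver-only tile nearest to them. Of 35 hepatocyte genes, Prox1, Hpd, Apoh, Krt18 and Onecut2 had 1 tile each nearest to them (0.290% of the tiles, against 0.212% of all). Among the erythroid genes, Gfi1b and Add2 had 1 tile each nearest to them. The Gfi1b tile, singled out after its values were seen, lay 14964 bp from a start of this repressor of the red cell and platelet lineages and had a margin of 13.3 points and gains of 16.3 and 17.2 points. No liver-only tile was nearest to any of 12 genes of the methylation machinery, to which 0.0783% of all tiles were nearest. At the starts of the hepatocyte genes themselves, methylation in the 4 E14.5 livers was 23.4% ± 0.389 in wild type and 25.3% ± 0.731 in mutants (SD, n = 2). At those of 20 erythroid genes it was 12.7% ± 0.553 and 13.9% ± 0.349. These levels bear on the make-up of the samples, whose part in the gains was not tested.

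Expression in E14.5 liver was compared between 3 wild-type and 3 mutant livers with edgeR's quasi-likelihood test across 14183 genes. Levels are CPM, the count of a gene scaled to the size of its library, and a gene was called at a Benjamini-Hochberg adjusted p below 0.05. Rlf RNA itself did not check the labels: it was 70.0, 72.3 and 68.9 CPM in wild type and 76.3, 79.8 and 67.6 CPM in the mutants, with a log2 fold change of 0.08 ± 0.07 (SE, edgeR adjusted p = 0.646). Over all genes 99 were higher in the mutants (0.698%) and 98 lower (0.691%).

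Calls near the liver-only tiles were counted beside those over all genes. Of 1186 tested genes that start within 50 kb of a tile centre, 6 were higher in the mutants in edgeR (0.506%, against 0.698% of all genes). There 16 were lower (1.35%, against 0.691%). DESeq2 called 15 of the 1186 higher (1.26%, against 1.09% of all genes) and 18 lower (1.52%, against 0.839%). The labels do not state that the replicate numbers mark pairs or litters. With the number as a replicate block in edgeR, the calls were 27 higher (2.28%) and 26 lower (2.19%), against 1.85% and 1.39% of all genes. In edgeR without the block, the median log2 fold change of the 1186 genes was -0.0068, and that of all genes -0.0017. At an unadjusted p under 0.05 in that fit, 130 of the 1186 were higher and 101 lower, against 1181 and 890 of all 14183 genes. Within 10 kb, 2 of 279 genes were higher (0.717%) and 9 lower (3.23%, against 0.691% of all genes). Of 954 tested genes whose protein-coding start was the nearest to a tile, 12 were higher (1.26%, against 0.698% of all genes). In this set 16 were lower (1.68%, against 0.691%). With edgeR's unadjusted p under 0.05, 165 of them were higher and 70 lower, against 1181 and 890 of all 14183 genes. Within 50 kb of the 87 tiles with the largest margins, 0 of 70 were higher in edgeR and 3 lower (4.29%, against 0.691% of all genes). At an unadjusted p under 0.05, 9 of these 70 were higher and 10 lower, against 1181 and 890 of all 14183 genes. DESeq2 called 3 of these 70 higher (4.29%, against 1.09% of all genes). Within 50 kb of any tile, leaving out mutant replicate 1 gave 0 of 1204 higher in edgeR and 9 lower (0.748%), against 0.188% and 0.271% of all genes. In that fit 101 of the 1204 were higher at an unadjusted p under 0.05, against 947 of all 14380 genes. Leaving out wild-type replicate 1, mutant replicate 2 or mutant replicate 3 gave 2 higher each (0.166%, 0.166% and 0.167%, against 0.243%, 0.369% and 0.432% of all genes). In a bulk sample, fewer cells of a type and less RNA per cell cannot be told apart.

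Hpd, which encodes an enzyme of tyrosine breakdown and is a hepatocyte gene, changed most. It was at 47.9, 26.1 and 34.7 CPM in the wild-type livers and at 0.388, 0.289 and 0.491 CPM in the mutant livers, a log2 fold change of -6.50 ± 0.32 (SE, edgeR adjusted p = 7.5e-07). The groups did not overlap. A liver-only tile (chr5:123627001-123628000) lies in an intron of Hpd, with its centre 5233 bp inside the gene from its 5′ end on the minus strand (chr5:123621816-123632734). This tile read 53.4% and 57.0% in wild-type and 63.5% and 63.9% in mutant E14.5 livers, and 59.1% and 55.3% against 72.0% and 73.4% at E18.5. In the embryos the groups overlapped, with 87.7% and 86.0% in wild type and 84.2% and 88.1% in mutants. Of the 31 hepatocyte genes tested, Hpd and the cytochrome gene Cyp3a11 were lower and Trf, which encodes transferrin, was higher.

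Timd2, a gene of the TIM receptor family, fell from 71.8, 59.9 and 70.98 CPM to 19.9, 18.2 and 18.46 CPM (log2 fold change -1.84 ± 0.09, edgeR adjusted p = 7.5e-07). Its intronic tile (chr11:46487001-46488000) lay 33062 bp from the start, with gains of 6.39 points at E14.5 and 8.54 at E18.5. Masp2, a protease of the lectin pathway of complement, fell from 29.7, 23.7 and 24.9 CPM to 9.86, 11.4 and 7.72 CPM (-1.43 ± 0.14, adjusted p = 0.000525). Its tile (chr4:148012001-148013000) was intergenic, beyond the 3′ end, and gained 7.10 and 9.74 points. For both genes the 3 mutant livers lay far below the wild types.

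Dnajb3, a DNAJ chaperone gene that overlaps the Ugt1a cluster, had tiles at its own start. It fell from 14.6, 8.99 and 11.4 CPM to 4.50, 4.04 and 2.53 CPM (-1.66 ± 0.22, edgeR adjusted p = 0.00378). Its nearer tile (chr1:90102001-90103000), with 60 CpGs, was 4.18% and 4.64% methylated in wild-type and 11.2% and 13.1% in mutant E14.5 livers, and 11.8% and 9.83% against 17.1% and 23.9% at E18.5. With the next tile it formed one of the 25 adjacent pairs. Reads were counted without strand, so expression of Dnajb3 and of overlapping genes on the other strand cannot be told apart.

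Aqp9, the glycerol channel of liver cells, also had an adjacent pair of tiles, in its intron (chr9:71007001-71009000). It fell from 22.9, 18.6 and 22.4 CPM to 12.4, 10.2 and 12.6 CPM (-0.86 ± 0.12, edgeR adjusted p = 0.00547). Its nearer tile had a margin of 10.8 points and read 52.1% and 54.9% in wild-type against 65.7% and 66.7% in mutant E14.5 livers. Tcf7l2, a transcription factor of the Wnt pathway, fell from 37.5, 31.6 and 35.4 CPM to 18.4, 16.7 and 19.6 CPM (-0.93 ± 0.09, adjusted p = 0.000541). The tile 8799 bp upstream of it (chr19:55807001-55808000) rose from 21.7% and 28.2% to 36.2% and 37.4% at E14.5, and from 23.6% and 25.2% to 51.5% and 41.6% at E18.5. After centring, the nearest tiles of Hpd, Tcf7l2, Aqp9, Myl9 and Gm10430 stayed in the list. Those of the other 10 of the 15 called genes with the largest changes within 50 kb of a tile left it, namely Timd2, Masp2, Dnajb3, Camp, Gsn, Bhlhe40, Ston2, Dab1, Itih5 and Dnahc8.

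Camp, the cathelicidin of neutrophil granules, had a tile across its start (chr9:109751001-109752000) that gained 7.02 and 12.1 points. It fell from 63.7, 77.6 and 48.9 CPM to 34.7, 34.9 and 33.0 CPM (-0.89 ± 0.13, edgeR adjusted p = 0.00647). It moved with its cell type: 6 of 9 neutrophil genes were lower, none was higher, and the 9 genes summed to 912 to 1330 CPM in wild type and 753 to 877 in mutants. The part of neutrophil number in the fall of Camp was not tested.

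Gelsolin (Gsn, which severs actin filaments) fell from 372, 281 and 307 CPM to 176, 186 and 181 CPM (-0.82 ± 0.09, edgeR adjusted p = 0.00144), with a tile 11426 bp upstream that gained 8.90 and 12.96 points. The predicted gene Gm10430 fell by 0.71 on the log2 scale, with a tile that spans its start and is centred 36 bp upstream of it. Hpd, Timd2, Masp2, Dnajb3, Aqp9, Tcf7l2, Camp, Gsn and Gm10430 were called in all 12 settings of the expression analysis. Myl9 (a myosin light chain), Itih5 (an extracellular matrix protein) and Dnahc8 (an axonemal dynein) also fell, by 0.85, 0.72 and 1.52, but lost the call when some livers were left out.

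Of the 15 called genes with the largest changes within 50 kb of a tile, 3 were higher in mutants. Bhlhe40, a basic helix-loop-helix repressor, rose from 24.0, 26.5 and 25.3 CPM to 37.4, 40.4 and 32.9 CPM (0.54 ± 0.09, edgeR adjusted p = 0.0126). Its tile, 34878 bp downstream of the start (chr6:108645001-108646000), gained 12.5 and 17.9 points. Ston2 (an endocytic adaptor) and Dab1 (an adaptor of reelin signalling) rose by 0.48 and 0.94, both with intronic tiles, and lost the call in 5 and 6 of 12 settings. Bhlhe40 lost it in 1, without mutant replicate 1. Gains in methylation thus stood beside higher as well as lower expression.

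**Figure D5:**
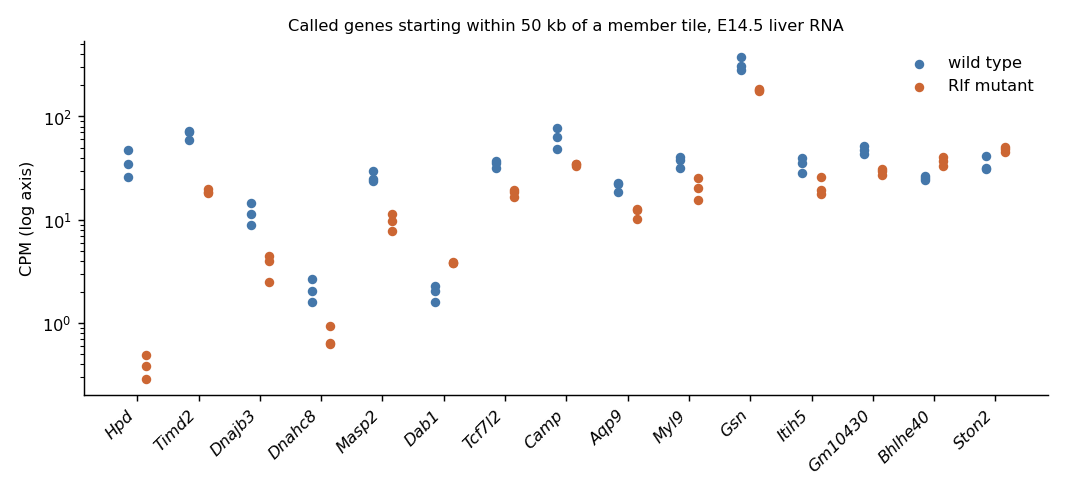
Expression (CPM, log axis) in 3 wild-type (blue) and 3 Rlf mutant (orange) E14.5 livers of the 15 called genes with the largest changes that start within 50 kb of a liver-only tile; each point is 1 liver. The groups do not overlap in any of them, as the choice of genes required, and Hpd falls from 26.1 CPM or more to 0.491 CPM or less.

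Most genes next to the strongest tiles were expressed and were not called. Exoc6 was at 114 to 120 CPM in wild type and 117 to 126 CPM in mutants, Epc2 at 37.1 to 42.4 and 36.1 to 41.7, Gja1 at 13.4 to 17.5 and 15.8 to 20.3, and Fyb at 22.96 to 30.2 and 23.6 to 30.1. Zeb2 was 58.7, 62.8 and 69.1 CPM in wild type and 78.2, 74.0 and 75.3 in mutants (0.25 ± 0.07, edgeR adjusted p = 0.109). Vldlr, nearest to the tile with the largest excess of E14.5 gain, rose from 12.7, 18.96 and 15.4 CPM to 30.9, 30.4 and 22.9 CPM (0.83 ± 0.15, adjusted p = 0.0182). Its 5′ end lay 68473 bp from the tile. For genes in which the groups overlapped, a missed threshold does not show equal expression.

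Among the 12 genes of the methylation machinery, of which 11 were tested, Dnmt3a was called. It rose from 101, 108 and 115 CPM to 136, 139 and 131 CPM (0.32 ± 0.06, edgeR adjusted p = 0.0319), and lost the call in 5 of 12 settings. Dnmt1 was at 384, 379 and 375 CPM in wild type and 416, 325 and 384 CPM in mutants (-0.02 ± 0.08, adjusted p = 0.948). Uhrf1 was lower in all 3 mutants without passing the test (-0.17 ± 0.07, adjusted p = 0.29), and Tet2 and Tet3 had log2 fold changes of 0.39 and 0.20 with adjusted p of 0.264 and 0.21. The part of Dnmt3a in the gains was not tested.

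Of the lists of cell type genes, erythroid (22 tested), macrophage (8), endothelial (8) and mesenchymal (9) genes had no member called by edgeR, and 1 of 6 megakaryocyte genes, Pf4, was higher. The 31 hepatocyte genes summed to 61214 to 72844 CPM in wild type and 75153 to 86958 CPM in mutants, without overlap, and the 22 erythroid genes to 38519 to 67003 and 46317 to 50335 CPM. Both programmes were abundant in every liver, as the labelled tissue would have. The part of hepatocyte and neutrophil proportions in the methylation gains was not tested.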

How the data were processed

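The authors trimmed and aligned bisulphite reads with Bismark and Bowtie2 to mm9 carrying FVB bases, removed duplicates and merged strands; the deposited WGBS files give read counts and unconverted cytosine counts per CpG. RNA reads were aligned with TopHat and counted per gene with HTSeq without strand; the deposited RNA-seq values are raw counts. CPM values were computed here.

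Members and gene lists were chosen with earlier results of these data known. The tile methylation, in percent, was computed from the deposited counts as unconverted over all reads summed over CpGs. The tiles were annotated with GENCODE vM1 on NCBIM37 (mm9), whose CpGs matched the files' positions counted from 0; 37205 of 37991 gene identifiers were found. Tile distances run from the tile centre to the nearest annotated protein-coding transcript start, and gene distances from the gene's 5′ end. WGBS libraries held 314390416 to 697227249 CpG reads on chromosomes 1 to 19, and the lambda spike-in was 0.0412% to 0.0775% unconverted. RNA libraries held 12928313 to 14621004 counts.

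edgeR 4.0.16 (TMM, filterByExpr, quasi-likelihood) was the main test. DESeq2 1.42.0, other scaling, no filter, sex, the replicate block and leaving out each liver were alternatives. Deviations from the group mean correlated between same-numbered livers (r = 0.125, 0.226 and 0.409 over 14183 genes). The labels give a sex for each RNA sample, so each was taken as 1 animal. On simulated counts for this comparison with 14071 genes, 99 of 103 genes changed 2-fold (96.1%) and 97 of 97 changed 4-fold (100%) were recovered, with 15 false calls. The changed genes were drawn only from those above 2 CPM in wild type, so these shares do not cover genes of lower expression. The simulated livers were drawn independently, without the correlation between same-numbered livers. All pairs of RNA libraries differed beyond sampling noise.

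Genes were named by rule: Rlf, the methylation machinery, the genes of named tiles, and the 15 called genes with the largest changes among those starting within 50 kb of a tile, with a mean of at least 1 CPM and groups that do not overlap. Tiles were named by margin (12), by the difference of both gains (3 at each end), by run length and by closeness to the limits. ChIP-seq samples were not analysed here. Part of the erythroid gene list is not reported here.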

Additional observations from a re-analysis of the deposited data

How the results depend on the processing

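Group sizes of 2 and 3 limit every value, and the depth of single tiles limits the list near its threshold. The number of liver-only tiles was 1725; it was 793 with at least 12 CpGs, 723 with the embryos within 2 points, 87 with a margin of 10 points (median gains 16.3 and 17.2 points in E14.5 and E18.5 liver), 548 with libraries centred and 52 with both (16.1 and 16.3 points), the last pair chosen after seeing the data. Leaving out each library gave 1489 to 6109 tiles, with median gains of 8.26 to 9.64 points at E14.5 and 9.41 to 11.001 points at E18.5. At least 10 reads, the mean over CpGs, moved borders and thinned E14.5 counts kept the count within 1.5 times and the median gains within the spread between replicates. The mean liver gain of 18 named tiles lay between 10.8 and 31.1 points under every alternative that gave a value. These tiles were chosen by gains in the same libraries, so that the gains stayed positive is no separate check. A margin of 10 points, at least 12 CpGs and embryos within 2 points cannot change the gain of a tile. Leaving out an embryo changed few of the gains. Centring lowered the gain of all 18 tiles, for the chromosome 19 tile from 26.4 to 24.0 points.

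Genes near the tiles numbered 6 higher and 16 lower. Higher genes were 15 with DESeq2 (1.26%, against 1.09% of all genes). They were 28 with no filter (1.53%, against 1.44%) and 27 with the replicate block (2.28%, against 1.85%). Against 0.698% of all genes, they were 2 within 10 kb (0.717%), 12 by nearest start (1.26%) and 0 for margins of 10 points. Without 1 liver they were 0 to 7 (at most 0.582%, against 0.188% to 0.675% of all genes). Lower genes were 26 with the replicate block (2.19%, against 1.39% of all genes). Against 0.691% of all genes, they were 9 within 10 kb (3.23%), 16 by nearest start (1.68%) and 3 for margins of 10 points (4.29%). Without 1 liver they were 9 to 17 (0.748% to 1.41%, against 0.271% to 0.883% of all genes). Over all genes, 99 higher and 98 lower became 154 higher with DESeq2, 317 and 215 with no filter, 263 and 197 with the replicate block, and 27 to 97 and 39 to 127 without 1 liver. The fit with the replicate block kept all 22 calls near the tiles, and the cause of the changes was not tested. Sex as a covariate and other size factors kept the counts within 1.5 times.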
